A study of Solanum lycopersicum with 36 samples.

Results

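The comparison described here sets roots of the tomato (*Solanum lycopersicum*) mutant *sdg34* against roots of the mutant *sdg33*, at both nitrogen (N) levels of the study. It rests on 12 of the 36 RNA-Seq libraries, chosen by their labels for organ and genotype, and it was fitted over all genes with the N condition as a covariate, so that no measured value chose the libraries. Each of the 4 groups (*sdg33* at -N, *sdg33* at +N, *sdg34* at -N and *sdg34* at +N) holds 3 libraries, and each library was made from a pool of 3 plants. Both mutants were made by CRISPR editing in the cultivar CastlemartII, and each is represented by 1 edited line, so that a difference between the mutants is also a difference between 2 lines. All plants were grown hydroponically with N, were starved of N for 2 days, and were then moved for 5 h to medium with 1.2 mM KNO3, 0.8 mM Ca(NO3)2 and 0.2 mM NH4H2PO4 (+N) or to the same medium without these N salts (-N). The control plants (WT, the unedited cultivar) and the shoots of these genotypes are given below only beside the root values of the mutants.

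SDG33 and SDG34 are SET domain proteins, histone methyltransferases related to Arabidopsis SDG8, which add methyl groups to lysines 4 and 36 of histone H3. Both marks are generally found on genes that are being transcribed, so loss of such an enzyme is usually studied through the transcripts that change. Roots take up nitrate through membrane transporters, reduce it with nitrate and nitrite reductase, and change the transcript levels of many genes within hours of N supply. The 2 mutants carry edits in related genes, and their direct comparison asks where the loss of one enzyme leaves a root transcriptome other than the loss of the other.

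The deposited values, called normalized counts here, are whole numbers that the authors obtained by full-quantile normalization. All 36 libraries hold the same sorted values (total of 19667069, highest value of 264554), so the number of reads behind a library or a gene is unknown, and the error of each value was taken from the spread between replicates. Within the 4 groups, Pearson's r across genes between replicates was 0.990 to 0.995 on the log2 scale, where genes are not independent replicates. Green tissue markers were low in these roots: the 6 photosystem and light-harvesting genes summed to 285 to 626 per root library and 61141 to 97908 per shoot library of the mutants, and 4 of the 6 stayed between 0 and 9 in every root library. In a principal component analysis of the 12 libraries, the first component (65.3% of the variance) separated -N from +N, and at -N it also separated the mutants, with *sdg33* at -46.98 to -44.63 and *sdg34* at -74.80 to -64.83. Groups of both mutants held a library apart from the other 2. On the second component (7.98% of the variance), *sdg34* +N replicates 1 and 2 lay at 36.9 and 33.4 and replicate 3 at -8.21. On this component, replicate 3 was nearer to the *sdg33* +N libraries at -33.3 to -10.03. Within *sdg33*, +N replicate 3 lay at -33.3 against -13.7 and -10.03, and -N replicate 2 at 3.74 against -19.5 and -13.0. On the third component (5.61% of the variance), *sdg34* -N replicates 1 and 2 lay at 23.4 and 30.2 while replicate 3 lay at -9.73, within the *sdg33* -N libraries at -33.1 to -1.78. On the fourth component (4.84% of the variance), *sdg34* +N replicate 3 lay at 42.6, apart from all other libraries at -15.1 to 10.6. Counts of genes are given with and without each of these libraries.

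**Figure D1:**
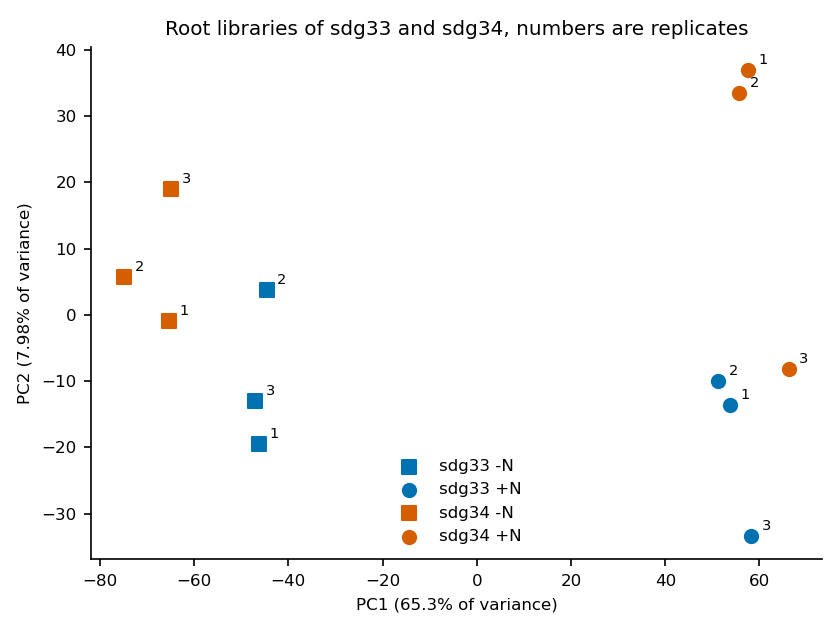
Principal components of the 12 root libraries of the 2 mutants (log2 of normalized count + 1), PC1 on the x axis and PC2 on the y axis. Squares are -N and circles +N libraries, numbers are replicates; the -N libraries of sdg34 lie further left than those of sdg33, and sdg34 +N replicate 3 lies at -8.21 on PC2, away from the other 2 of its group.

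The transcripts of the edited genes did not pass the test in this comparison. *SDG33* (*Solyc04g057880.3*) had normalized counts of 384, 462 and 394 at -N and 348, 359 and 319 at +N in *sdg33* roots, against 502, 470 and 486 at -N and 458, 531 and 388 at +N in *sdg34* roots. *SDG34* (*Solyc06g059960.3*) had 206, 233 and 222 at -N and 175, 176 and 204 at +N in *sdg33* roots, against 108, 164 and 77 at -N and 104, 104 and 174 at +N in *sdg34* roots. Each gene thus had lower values in the roots of its own mutant, with no overlap between the mutants within either N condition. Neither difference passed the threshold of an adjusted p of 0.05 used throughout (limma with Benjamini-Hochberg adjustment over all 20332 genes tested). The log2 difference between *sdg34* and *sdg33* was 0.33 (SE 0.08, adjusted p = 0.106) for *SDG33* and -0.78 (SE 0.18, adjusted p = 0.084) for *SDG34*, and each passed in 1 of the 12 fits that left out 1 library. Against WT, with 474 to 525 at -N and 392 to 446 at +N for *SDG33* and 156 to 201 and 130 to 160 for *SDG34*, *SDG33* was lower in *sdg33* (log2 difference of -0.30, SE 0.07, adjusted p = 0.00222) and *SDG34* was lower in *sdg34* (-0.44, SE 0.16, adjusted p = 0.0258). Such differences from WT were common: 55.5% of the genes tested passed in *sdg33* roots and 53.2% in *sdg34* roots. The median absolute log2 difference from WT was 0.30 in *sdg33* and 0.29 in *sdg34*. Of the *sdg34* libraries, -N replicate 2 (164) lay within the WT values of *SDG34* and +N replicate 3 (174) above those at +N. Transcript levels do not show whether an edit removed the protein, so these values check the labels in direction only.

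Over both N conditions, 109 genes (0.536% of the 20332 tested) differed between the mutants, 60 higher (0.295%) and 49 lower (0.241%) in *sdg34*. The genes that were higher in *sdg34* were led by a homeobox-leucine zipper transcription factor and included a sucrose-phosphate synthase, a defensin-like peptide and a receptor-like kinase, and those that were lower were led by a pair of neighbouring cytochrome P450 genes and an ethylene-responsive transcription factor. Most differences were modest in size: the median absolute log2 difference was 0.70 among the higher and 0.58 among the lower genes, and 34 genes (0.167% of those tested) differed by at least 1, 17 in each direction. All 109 had the same sign at -N and at +N. For 54 of the 60 higher and 46 of the 49 lower genes, the libraries of the mutants did not overlap within either N condition, which held for 2.16% of all genes tested. The additive fit counts a change of the difference between N conditions as error, so it favours genes with like differences at both. Both descriptions come from the values that selected the genes and do not test them. For comparison with the size of other effects in the same tissue, 12051 genes (59.3%) differed between +N and -N over both mutants. Against WT, 11462 of 20670 genes (55.5%) differed in *sdg33* roots and 10987 (53.2%) in *sdg34* roots, 2 comparisons that share their WT libraries.

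The number of genes depended on single libraries, and *sdg34* +N replicate 3 moved it most. Without that library 325 genes passed, among them all 109. Leaving out *sdg33* -N replicate 1, 2 or 3 gave 40, 70 and 105 genes, *sdg33* +N replicate 1, 2 or 3 gave 47, 74 and 36, *sdg34* -N replicate 1, 2 or 3 gave 57, 34 and 56, and *sdg34* +N replicate 1 or 2 gave 37 and 66. Of the 109 genes, 27 passed in all 12 of these fits, 22 in 6 to 11 and 60 in 1 to 5. The number of such fits is given for the named genes below. A description was at hand for 23 of the 109 genes, 15 higher and 8 lower, from lists of genes that the study had selected on these same libraries against WT.

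**Figure D2:**
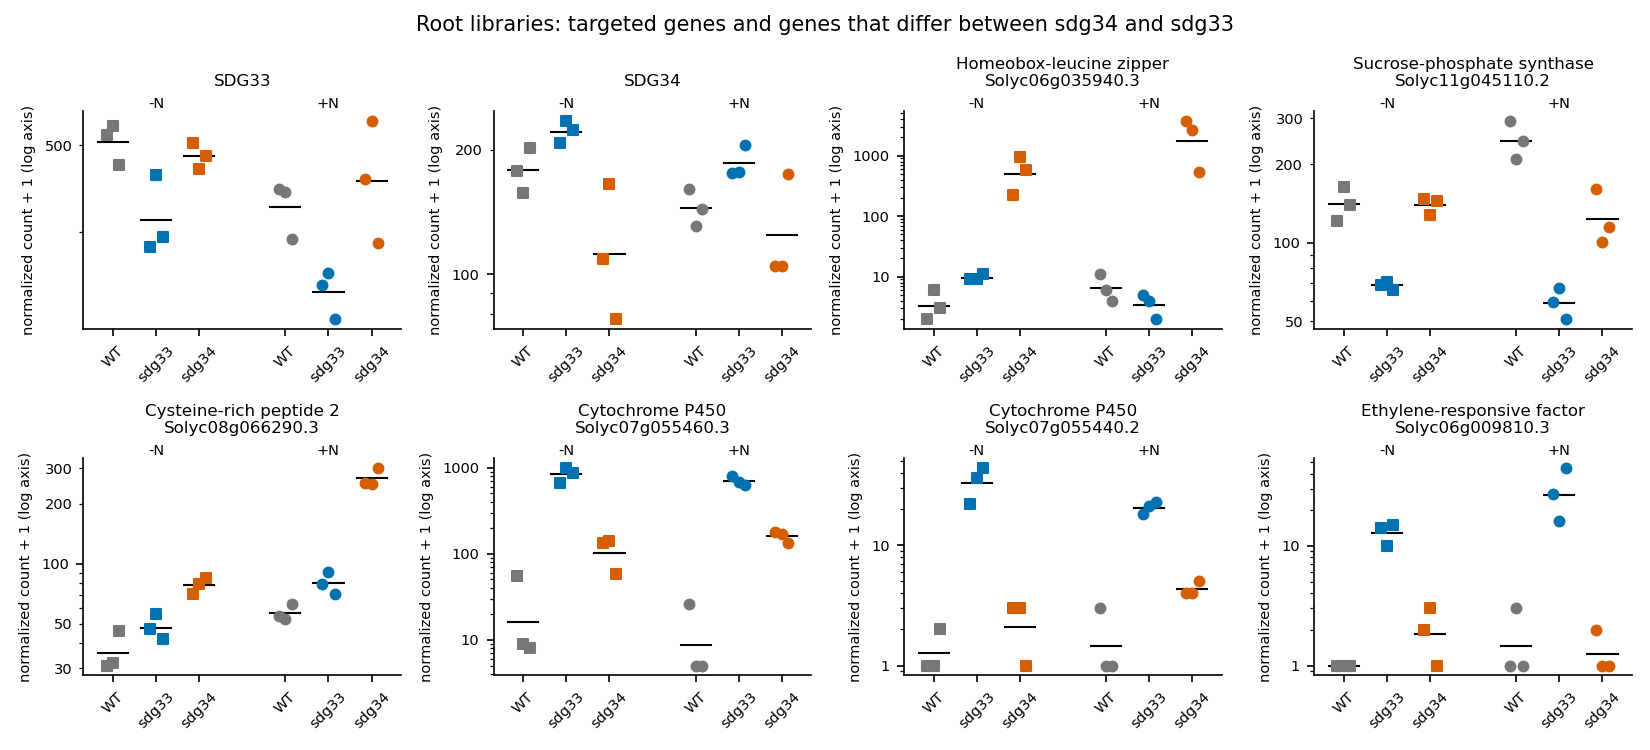
Normalized count + 1 (log y axis) in each root library for SDG33, SDG34 and 6 genes that differed between the mutants, by genotype and N condition. Points are libraries (3 per group) and bars the mean on the log scale; the homeobox-leucine zipper gene is at 224 to 3704 in sdg34 and at 1 to 10 in sdg33, and Solyc07g055460.3 is at 57 to 176 in sdg34 and 630 to 994 in sdg33.

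Transcription factors gave the largest difference in each direction among described genes. *Solyc06g035940.3*, a homeobox-leucine zipper gene with a lipid-binding START domain in its Arabidopsis homolog, belongs to a family of plant transcription factors that act in cell fate and development. Its normalized counts were 8, 8 and 10 at -N and 4, 3 and 1 at +N in *sdg33*, and 224, 956 and 578 at -N and 3704, 2636 and 532 at +N in *sdg34*. WT roots had 1 to 10, like *sdg33*, so among the root libraries the gene was near the bottom of the scale in both of these genotypes and high in *sdg34*. The log2 difference was 7.34 (SE 0.64, adjusted p = 0.000344) and passed in all 12 fits. In *sdg34* the level was also higher at +N than at -N (log2 of 1.79, SE 0.65, adjusted p = 0.0351), although the difference in N response between the mutants, 3.29 (SE 0.93), did not pass (adjusted p = 0.162).

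The ethylene-responsive transcription factor gene *Solyc06g009810.3* showed the opposite arrangement at a low level. Members of its family bind promoters of hormone and stress response genes. It had 13, 9 and 14 at -N and 26, 15 and 44 at +N in *sdg33*, and 1, 2 and 0 at -N and 1, 0 and 0 at +N in *sdg34*. WT roots had 0 in 5 libraries and 2 in the other one, so here *sdg34* lay with WT and *sdg33* stood apart. The log2 difference was -3.62 (SE 0.41, adjusted p = 0.00196), which passed in all 12 fits. On the log2(value + 1) scale such low values understate a change. Of the 157 transcription factor genes tested from the described genes, these 2 were the ones that passed, 1 in each direction. For comparison, 23 of the 1353 described genes tested passed, and 0.536% of all genes tested. The median log2 difference of the 157 was -0.05, against -0.01 over all genes tested.

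Oxidoreductases made up the largest group of described genes that differed. Of 126 tested, 3 were higher and 3 lower in *sdg34*. Among the 1353 described genes tested, from which the list was drawn, 15 were higher and 8 lower. Among all genes tested the shares were 0.295% and 0.241%. The 3 lower ones were those that passed among 28 tested genes listed as cytochromes P450 by their descriptions, a list that may miss members of the family. Cytochromes P450 are heme enzymes that oxidize small molecules such as hormones and defense compounds. *Solyc07g055460.3* and *Solyc07g055440.2*, both described as similar to CYP72A15 of Arabidopsis, are neighbours among the genes tested on chromosome 7. *Solyc07g055460.3* had 666, 994 and 876 at -N and 790, 684 and 630 at +N in *sdg33*, and 131, 140 and 57 at -N and 176, 170 and 132 at +N in *sdg34*. WT roots had 4 to 54, below both mutants, so both were raised and *sdg33* far more. The log2 difference between the mutants was -2.58 (SE 0.23, adjusted p = 0.000344). *Solyc07g055440.2* had 21, 35 and 43 at -N and 17, 20 and 22 at +N in *sdg33*, and 2, 2 and 0 at -N and 3, 3 and 4 at +N in *sdg34*, with 0 to 2 in WT. Its log2 difference was -3.11 (SE 0.38, adjusted p = 0.0025), and both genes passed in all 12 fits. Both genes carry the same description, and reads that match both could have been assigned to either, which the deposited values do not show. The third, *Solyc08g083520.2* (CYP706A6-like, named here after its values were seen), was at 10 to 29 in *sdg33* and 5 to 14 in *sdg34* (log2 difference of -1.17, SE 0.22, adjusted p = 0.0362) and passed in 2 of the 12 fits.

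The 3 oxidoreductase genes that were higher in *sdg34* were repressed by N in both mutants. The class III peroxidase gene *Solyc03g080150.3*, of an enzyme family that acts on the cell wall, had 3386, 3426 and 4662 at -N and 1061, 1048 and 860 at +N in *sdg33*, and 5662, 7000 and 5526 at -N and 1454, 1562 and 1122 at +N in *sdg34*. Its log2 difference was 0.57 (SE 0.11, adjusted p = 0.0377, 2 of 12 fits). *Solyc02g086970.3*, similar to the mitochondrial aldehyde dehydrogenase ALDH2B4, had 633, 926 and 582 at -N and 368, 450 and 346 at +N in *sdg33*, and 1720, 1520 and 1507 at -N and 825, 1027 and 400 at +N in *sdg34*. Here *sdg34* +N replicate 3 fell among the *sdg33* libraries, and the log2 difference was 1.01 (SE 0.19, adjusted p = 0.0377, 3 of 12 fits). The FAD-binding berberine family gene *Solyc02g070090.1* had 28, 33 and 115 at -N and 17 to 19 at +N in *sdg33*, and 178, 109 and 115 at -N and 45 to 78 at +N in *sdg34* (log2 difference of 1.5, SE 0.29, adjusted p = 0.0414, 2 of 12 fits). The mutants overlapped at -N through 1 high *sdg33* library, and WT lay at 124 to 166 and 60 to 100.

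A gene of sucrose synthesis and one of membrane transport were higher in *sdg34*. *Solyc11g045110.2* encodes a sucrose-phosphate synthase family protein, of the enzymes that make sucrose phosphate. It had 68, 70 and 65 at -N and 58, 66 and 50 at +N in *sdg33*, and 146, 127 and 143 at -N and 160, 100 and 114 at +N in *sdg34*. WT had 120 to 162 at -N, overlapping *sdg34*, and 208 to 291 at +N, above both mutants. The log2 difference between the mutants of 1.05 (SE 0.12, adjusted p = 0.00205) was about equal at -N (1.02) and +N (1.07) and passed in all 12 fits. *Solyc11g007140.2*, whose Arabidopsis homolog is a carrier of the major facilitator superfamily, had 102, 102 and 122 at -N and 76, 63 and 60 at +N in *sdg33*, and 170, 179 and 154 at -N and 110, 98 and 115 at +N in *sdg34*. No *sdg34* library overlapped the *sdg33* libraries of the same N condition, and the log2 difference of 0.66 (SE 0.10, adjusted p = 0.0104) passed in all 12 fits. It was the only one of the 57 transporter genes tested to pass over both N conditions, against 23 of the 1353 described genes tested.

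Among genes of defense and signalling, a secreted peptide gene and a receptor kinase gene were higher in *sdg34*. The low-molecular-weight cysteine-rich gene *Solyc08g066290.3*, of a family of small defensin-like secreted peptides, had 46, 55 and 41 at -N and 78, 90 and 70 at +N in *sdg33*, and 70, 78 and 84 at -N and 252, 250 and 301 at +N in *sdg34*. WT was at 30 to 45 and 52 to 62, overlapping *sdg33* at -N and below both mutants at +N. The log2 difference was 1.22 over both conditions (SE 0.18, adjusted p = 0.0104, 12 of 12 fits) and 1.74 at +N (SE 0.16, adjusted p = 0.000871). The leucine-rich repeat receptor-like kinase gene *Solyc07g008630.1*, of a class of membrane receptors, had 64, 84 and 94 at -N and 104, 107 and 100 at +N in *sdg33*, and 110, 101 and 128 at -N and 269, 201 and 266 at +N in *sdg34*. Its log2 difference was 0.86 (SE 0.15, adjusted p = 0.0293, 5 of 12 fits) and 1.22 at +N (SE 0.17, adjusted p = 0.0195). For neither gene did the difference between the N conditions pass (interaction adjusted p = 0.113 and 0.201). Of 76 defense and heat shock genes tested, 2 were higher and 1 was lower in *sdg34*, the last being a DnaJ chaperone gene, and of 86 kinase genes 2 were higher, against 0.536% of all genes tested and 23 of the 1353 described genes tested. The second of these kinase entries, *Solyc02g062050.2*, is annotated in tomato as a retrovirus-related Pol polyprotein of a TNT 1-94 transposon and only in its Arabidopsis match as a receptor-like kinase. It had 0 to 3 in *sdg33* and 1 to 18 in *sdg34* (log2 difference of 2.82, SE 0.53, adjusted p = 0.036, 3 of 12 fits).

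The DnaJ chaperone gene *Solyc10g086570.3*, of a family of partners of heat shock protein Hsp70, was lower in *sdg34*, with 72, 74 and 104 at -N and 244, 237 and 466 at +N in *sdg33*, and 22, 16 and 26 at -N and 99, 125 and 254 at +N in *sdg34*. WT roots had 10 to 19 in every library, below both mutants, and the gene was N-induced in both mutants. The log2 difference was -1.48 (SE 0.27, adjusted p = 0.0302, 3 of 12 fits). *Solyc01g087040.2*, for a PsbP-like protein of photosystem II, was also lower in *sdg34*, at 94 to 122 at -N and 201 to 327 at +N against 175 to 190 and 308 to 438 in *sdg33* (log2 difference of -0.64, SE 0.13, adjusted p = 0.0498, 1 of 12 fits). It is 1 of the 6 green tissue markers, and the summed markers, itself included, were 285 to 350 at -N and 421 to 565 at +N in *sdg34* against 350 to 359 and 512 to 626 in *sdg33*. Of the other 5 markers, *Solyc01g105050.3* went the other way, at 186 to 212 and 214 to 228 in *sdg34* against 150 to 176 and 172 to 196 in *sdg33*, and 4 were at or near 0 in roots. In whole roots, fewer cells of a type and less RNA per cell cannot be told apart.

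Of the genes listed under hormones by keywords in their descriptions, 1 of 23 for ethylene and 1 of 23 for other hormones passed. Among all described genes tested 23 of 1353 passed, and among all genes tested 0.536%. No auxin gene passed. Of 27 auxin genes tested, 10 of them SAUR genes, 0 passed by limma over both N conditions, at -N or at +N, with 6, 9 and 2 at an unadjusted p under 0.05, against 2854, 3128 and 3012 of all 20332 genes. None of 7 genes of N transport and assimilation passed either (0, 1 and 1 unadjusted), nor of 19 genes of sulfur and glutathione metabolism (2, 3 and 3) or 8 chromatin genes (1, 0 and 4), by the same test. The SAUR genes, whose products promote auxin-driven cell elongation, had a median log2 difference of -0.27 and 2 genes at an unadjusted p under 0.05. *Solyc01g096340.3* had 138 to 167 in *sdg33* and 108 to 175 in *sdg34*, *Solyc01g091030.3* had 64 to 104 and 37 to 94, and *Solyc07g066560.1* had 74 to 102 and 58 to 182. The log2 differences of these 3 were -0.11 (SE 0.11), -0.24 (SE 0.22) and 0.06 (SE 0.17), all with overlapping libraries. Among the ethylene genes, the ethylene-responsive factor gene above was the one that passed. In the keyword list of gibberellin, cytokinin, abscisic acid and jasmonate it was the divinyl ether synthase gene *Solyc01g109140.3*, of an enzyme that makes oxylipins from fatty acid hydroperoxides. Its Arabidopsis homolog is described as allene oxide synthase, and the tomato gene itself was not shown to belong to any of these hormones. The divinyl ether synthase gene had 3000, 2316 and 2964 at -N and 3584, 2638 and 2636 at +N in *sdg33*, and 4062, 4668 and 4268 at -N and 4138, 3301 and 4370 at +N in *sdg34*. The groups overlapped at +N, and the log2 difference was 0.54 (SE 0.10, adjusted p = 0.0377, 3 of 12 fits).

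The genes of nitrate uptake and reduction did not pass between the mutants. *NRT1.1* (*Solyc08g078950.3*), a nitrate transporter and sensor in Arabidopsis, had 13986, 12602 and 12820 at -N and 10525, 9041 and 9012 at +N in *sdg33*, and 13910, 13592 and 13576 at -N and 11384, 11040 and 8266 at +N in *sdg34*. The log2 difference between the mutants was 0.08 (SE 0.08, adjusted p = 0.687), and in both mutants +N lay below -N, with an N response of -0.47 (adjusted p = 0.00525) in *sdg33* roots and of -0.43 (adjusted p = 0.00604) in *sdg34* roots, each with an SE of 0.11. WT roots went the other way, from 4678 to 5879 at -N to 8046 to 8592 at +N. The nitrate transporter gene *Solyc08g007430.2* had 4 to 11 at -N in both mutants and 671 to 1850 in *sdg33* and 1150 to 1670 in *sdg34* at +N. Nitrite reductase (*Solyc10g050890.2*) had 794 to 1520 and 822 to 1358 at -N, and 32837 to 34712 and 35396 to 37682 at +N. Both genes were induced by N in each mutant. For neither did the difference in N response between the mutants pass (log2 of 0.58, SE 0.55, and 0.30, SE 0.31). Of the 7 tested genes of N transport and assimilation, 0 passed for the difference in N response by limma. Their median difference was -0.58, and 2 had an unadjusted p under 0.05, against 14.6% of all genes tested.

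Other described genes that were higher in *sdg34* had diverse annotations. *Solyc12g042800.2*, named for a domain that binds double-stranded RNA, had 0 to 2 in *sdg33* roots and 4, 63 and 3 at -N and 76, 120 and 46 at +N in *sdg34*, with 0 or 1 in WT (log2 difference of 4.05, SE 0.70, adjusted p = 0.0259, 6 of 12 fits). It resembled the homeobox-leucine zipper gene in being near 0 in *sdg33* and WT. *Solyc10g018903.1*, similar to the transcription elongation factor SPT4, had 0 to 4 in *sdg33*, 7 to 18 in *sdg34* and 0 in WT (2.35, SE 0.46, adjusted p = 0.0414, 2 of 12 fits). *Solyc07g018070.3*, a P-loop nucleoside triphosphate hydrolase with a double Clp-N motif, had 774, 792 and 708 at -N and 502, 583 and 414 at +N in *sdg33* and 954, 1022 and 1015 at -N and 767, 670 and 650 at +N in *sdg34* (0.44, SE 0.08, adjusted p = 0.0284, 6 of 12 fits). WT lay higher still, at 1130 to 1266 at -N and, overlapping *sdg34*, 738 to 874 at +N. Among the lower genes, the UDP-glycosyltransferase gene *Solyc07g043150.1*, of enzymes that attach sugars to small molecules, had 1575, 1516 and 1561 at -N and 2916, 2702 and 2858 at +N in *sdg33* and 1096, 1016 and 1213 at -N and 2238, 2312 and 1948 at +N in *sdg34*. Its difference was small but even (-0.44, SE 0.06, adjusted p = 0.00428, 12 of 12 fits), and WT overlapped *sdg34* at both N conditions, at 1154 to 1358 and 1990 to 2188.

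Another 3 described genes passed and were named after their values were seen. The diacylglycerol O-acyltransferase 2 gene *Solyc01g066790.1*, of an enzyme of storage lipid synthesis, had 0 to 2 in *sdg33* and 11 to 25 in *sdg34* (log2 difference of 3.07, SE 0.37, adjusted p = 0.00219, 12 of 12 fits). *Solyc06g054310.1*, a Fantastic four-like gene, had 2 to 4 at -N and 18 to 28 at +N in *sdg33* and 7 to 12 and 36 to 45 in *sdg34* (1.1, SE 0.22, adjusted p = 0.0498, 1 of 12 fits). *Solyc08g007480.2*, of the DUF1442 family, was lower in *sdg34*, at 32 to 40 and 951 to 1354 against 65 to 68 and 1335 to 1556 in *sdg33* (-0.58, SE 0.11, adjusted p = 0.0377, 2 of 12 fits). The last gene was strongly N-induced in both mutants, and its mutant libraries overlapped at +N.

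Of the 109 genes, 86 had no description at hand. Among those with a mean of at least 20 and no overlap within either N condition, *Solyc08g059700.2* had the largest difference upward, with 5, 3 and 12 at -N and 15, 10 and 17 at +N in *sdg33* and 76, 108 and 72 at -N and 100, 74 and 76 at +N in *sdg34* (log2 difference of 3.08, SE 0.30, adjusted p = 0.000817). *Solyc01g020376.1* followed, at 2 to 6 in *sdg33* and 16 to 61 in *sdg34* (2.80, SE 0.31, adjusted p = 0.00169). Downward, *Solyc12g088010.2* was at 34 to 65 in *sdg33* and 7 to 22 in *sdg34* (-1.66, SE 0.27, adjusted p = 0.0205), and *Solyc12g088190.2* at 18 to 50 and 6 to 15 (-1.56, SE 0.20, adjusted p = 0.00393). WT roots were at 1 to 6 for the first of these 4 genes and at 2 to 9 for *Solyc12g088010.2*, nearer to the mutant with the lower level in both cases.

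WT levels placed the 109 genes in relation to both mutants, as a description without a test. Of the 60 genes higher in *sdg34*, WT lay above both mutants for 28, between them for 24 and below both for 8, and it was nearer to *sdg34* for 40. Of the 49 lower genes, WT lay below both mutants for 28, between them for 15 and above both for 6, and it was nearer to *sdg34* for 38. Among these genes, *sdg33* was therefore more often the mutant further from WT in both directions. No such placement over all genes tested is given here, so it is not shown to be particular to the 109. N also moved many of them: 32 of the 60 higher genes (53.3%) were repressed by N over both mutants and 6 (10.0%) induced, against 30.6% and 28.6% of all genes tested, while of the 49 lower genes 18 (36.7%) were induced and 11 (22.4%) repressed.

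At -N alone, 159 genes (0.782%) differed between the mutants, 49 higher (0.241%) and 110 lower (0.541%) in *sdg34*, and at +N alone 59 (0.29%), 31 higher (0.152%) and 28 lower (0.138%). The split between the directions was uneven at -N. Of the 110 genes that were lower in *sdg34* at -N, 94 (85.5%) were N-induced over both mutants and 1 was N-repressed, and of the 49 that were higher, 33 (67.3%) were N-repressed and 3 were N-induced. The N effect and the difference at -N share the -N libraries, so these shares are not independent of each other. The median log2 difference of the 110 genes was -1.08 at -N and -0.03 at +N. At -N, WT was below both mutants for 79 of the 110 and nearer to *sdg34* for 102, so that in most of them -N roots of *sdg33* held the highest level of the 3 genotypes. This placement, too, is given without its share over all genes tested. The number at -N was 194, 34 and 31 without *sdg33* -N replicate 1, 2 or 3, 89, 142 and 98 without the *sdg33* +N replicates in the same order, 28, 27 and 434 without those of *sdg34* -N, and 96, 103 and 301 without those of *sdg34* +N. At +N the corresponding numbers were 96, 30 and 48, then 22, 41 and 3, then 31, 31 and 67, and last 3, 22 and 502.

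**Figure D3:**
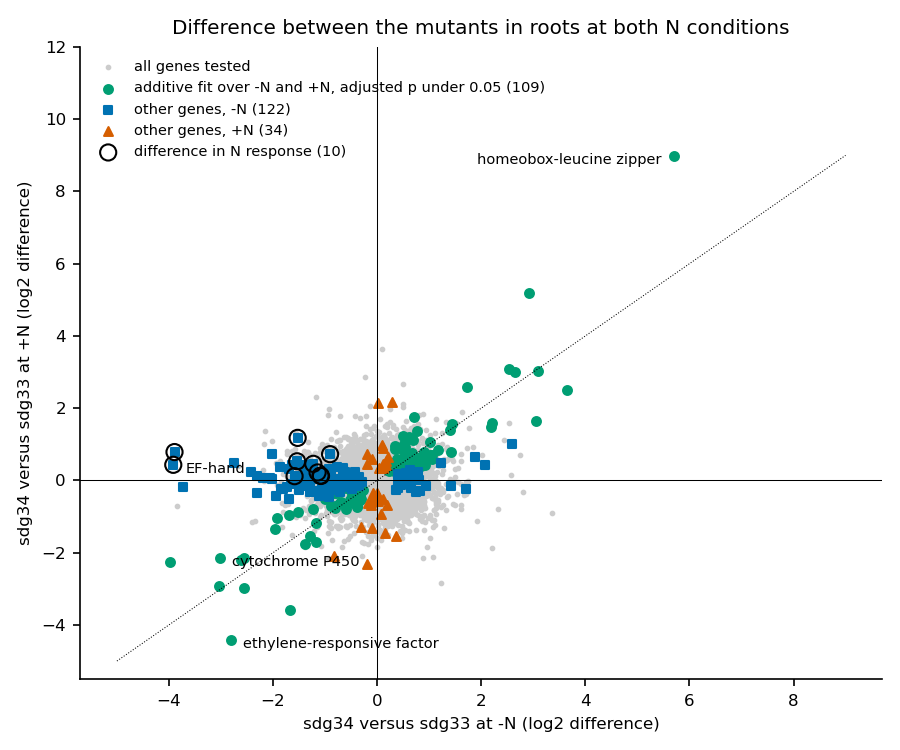
Log2 difference between sdg34 and sdg33 roots for each of the 20332 genes tested, at -N (x axis) and at +N (y axis), with the dotted line marking equal differences. Colors mark genes past an adjusted p of 0.05 in each comparison. The 109 genes lie along the line, which the additive fit that selected them favours. The 10 circled genes with a differing N response lie at -3.92 to -0.90 at -N and 0.12 to 1.18 at +N.

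Over the genes with an N effect of at least 1 on the log2 scale over both mutants, the response was larger in *sdg34* than in *sdg33* for 1005 of 1321 induced genes (76.1%) and for 1085 of 1360 repressed genes (79.8%). The median response of the induced genes was 1.68 in *sdg34* and 1.32 in *sdg33*, and that of the repressed genes -1.55 and -1.23. The difference lay mainly at -N, where the induced genes had a median log2 difference between *sdg34* and *sdg33* of -0.26 against 0.08 at +N, and the repressed genes 0.26 and -0.07. Leaving out each library in turn, with the same genes, gave 73.4% to 78.6% for the induced and 74.6% to 84.0% for the repressed genes. These shares describe genes that vary together in 12 libraries and carry no test. By the test of the interaction for single genes, 10 genes (0.0492%) passed, and 2959 (14.6%) had an unadjusted p under 0.05. All 10 had a larger induction in *sdg34*, and all 10 passed at -N, where *sdg34* was lower. By limma, 0 genes passed with a more negative response in *sdg34*. At an unadjusted p under 0.05 the response in *sdg34* was more positive for 1486 genes and more negative for 1473, and for an N-repressed gene a more negative response is a stronger one. The split of 10 against 0 rested on the libraries: it was 145 more positive and 168 more negative without *sdg34* -N replicate 3, 113 and 55 without *sdg33* -N replicate 1, 17 and 20 without *sdg34* +N replicate 3, and 13 and 11 without *sdg33* +N replicate 2.

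Of these 10 genes, 5 had a description. The smallest p was that of the undescribed *Solyc06g072210.1*, named here after its values were seen. It had 114, 115 and 122 at -N and 1094, 810 and 872 at +N in *sdg33*. In *sdg34* it had 9, 4 and 9 at -N and 1322, 1858 and 1613 at +N. Its difference in response was 4.68 (SE 0.33, adjusted p = 0.000103 by limma, 12 of 12 fits). *Solyc01g111880.3*, annotated as MAP kinase kinase kinase 11 and in Arabidopsis as an ACT-like protein kinase, had 948, 1069 and 986 at -N and 6876, 6698 and 7856 at +N in *sdg33*, and 354, 314 and 330 at -N and 6940, 7313 and 9100 at +N in *sdg34*. The mutants reached like levels at +N from a lower level at -N in *sdg34*, with WT lower still at 169 to 199. The N response was 2.83 in *sdg33* and 4.54 in *sdg34*, a difference of 1.70 (SE 0.14, adjusted p = 0.000359), which passed in all 12 fits that left out 1 library. *Solyc03g031630.3*, for a calcium-binding EF-hand protein, a type of calcium sensor, had 81, 80 and 80 at -N and 624, 466 and 522 at +N in *sdg33*, and 12, 2 and 3 at -N and 575, 755 and 860 at +N in *sdg34*. WT had 0 to 3 at -N and 34 to 57 at +N, so *sdg34* resembled WT at -N and *sdg33* at +N. The difference in response was 4.35 (SE 0.56, adjusted p = 0.0298, 8 of 12 fits).

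*Solyc02g092290.3*, for an F-box protein, of the subunits by which ubiquitin ligases select their substrates, had 1081, 1371 and 1695 at -N and 4174, 5189 and 3626 at +N in *sdg33*, and 617, 452 and 700 at -N and 5578, 5886 and 6219 at +N in *sdg34*. Its response was 1.65 in *sdg33* and 3.34 in *sdg34*, a difference of 1.69 (SE 0.26, adjusted p = 0.0441, 4 of 12 fits). The NBS-LRR gene *Solyc06g064750.1*, of a class of intracellular immune receptors, had 240, 316 and 305 at -N and 836, 746 and 700 at +N in *sdg33*, and 141, 124 and 136 at -N and 714, 828 and 974 at +N in *sdg34* (difference in response of 1.22, SE 0.19, adjusted p = 0.0441, 4 of 12 fits). *Solyc07g054270.3*, of the DUF789 family, had 563, 655 and 768 at -N and 2280, 2360 and 2115 at +N in *sdg33*, and 340, 268 and 328 at -N and 2249, 2464 and 2655 at +N in *sdg34* (1.20, SE 0.17, adjusted p = 0.0346, 6 of 12 fits). WT roots had 141 to 188 at -N and 142 to 208 at +N for the F-box gene, and 72 to 110 and 52 to 82 for the NBS-LRR gene. The number of genes that passed for the N response was 168, 2 and 2 without *sdg33* -N replicate 1, 2 or 3, 7, 24 and 2 without the *sdg33* +N replicates, 6, 4 and 313 without those of *sdg34* -N, and 6, 3 and 37 without those of *sdg34* +N. The 10 genes were all among the 168, the 313 and the 37.

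**Figure D4:**
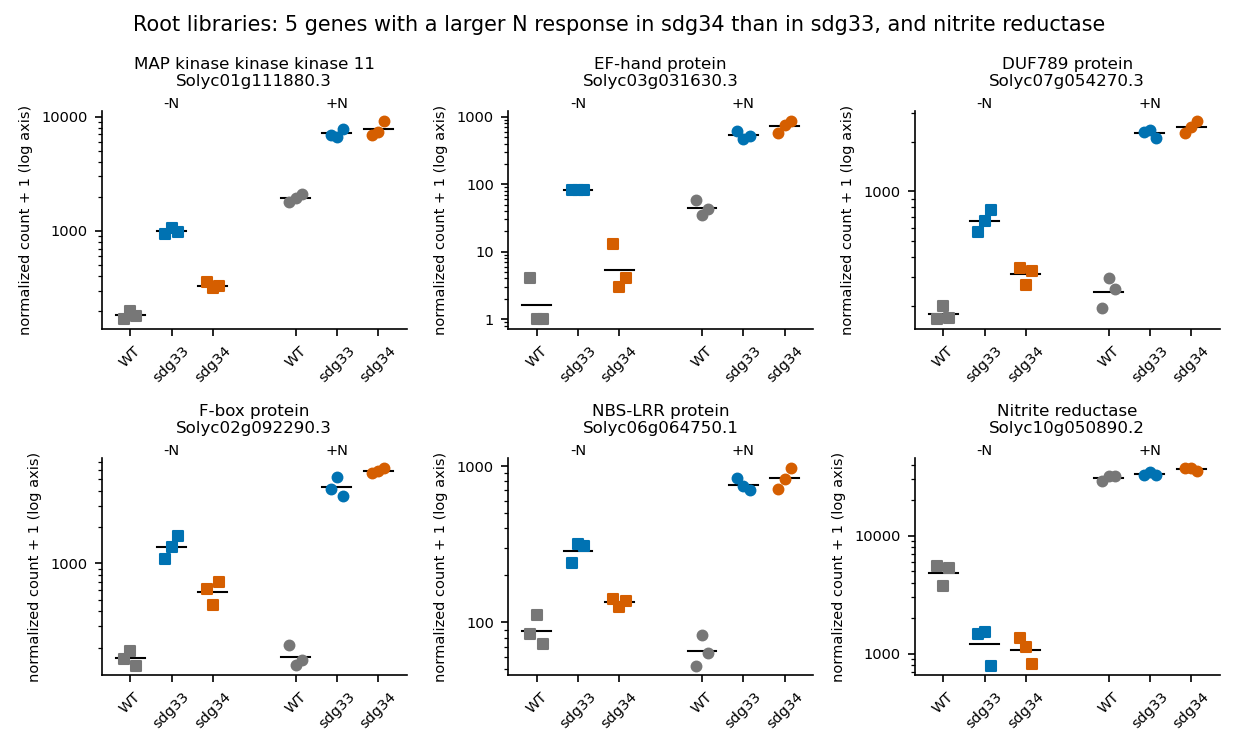
Normalized count + 1 (log y axis) in each root library for the 5 described genes whose N response differed between the mutants, and for nitrite reductase. For nitrite reductase the difference in response did not pass. Points are libraries (3 per group) and bars the mean on the log scale. In the first 5 panels sdg34 lies below sdg33 at -N, and the mutants lie closer together at +N than at -N. For the F-box gene they do not overlap at +N, with 5578 to 6219 in sdg34 and 3626 to 5189 in sdg33.

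At one N condition alone, a few more described genes passed. At -N, the inositol trisphosphate 5-phosphatase gene *Solyc03g098030.3*, of enzymes that remove phosphate from inositol signals, had 194, 286 and 319 in *sdg33* and 662, 554 and 616 in *sdg34* (log2 difference of 1.22, SE 0.23, adjusted p = 0.0354, 6 of 12 fits), with WT at 692 to 792. The CASP-like gene *Solyc11g012590.2*, related to proteins of the Casparian strip of the root endodermis, had 216, 214 and 194 against 358, 492 and 285 (0.83, SE 0.17, adjusted p = 0.0447, 3 of 12 fits). In the other direction, the cytochrome P450 gene *Solyc04g078370.3* (CYP81K2-like) had 24, 29 and 43 in *sdg33* and 5, 1 and 8 in *sdg34* at -N (-2.75, SE 0.43, adjusted p = 0.0183, 9 of 12 fits). It was strongly induced in both mutants, to 278 to 392 and 378 to 563 at +N, while WT had 0 or 1 at -N and 8 to 12 at +N. At +N, the VQ motif gene *Solyc09g008760.1*, of partners of WRKY transcription factors, had 15, 25 and 26 in *sdg33* and 6, 10 and 6 in *sdg34* (-1.46, SE 0.26, adjusted p = 0.04, 5 of 12 fits). None of these 4 differences was shown to be particular to 1 N condition, since the interaction did not pass for any of them (adjusted p of 0.318, 0.112, 0.0938 and 0.122).

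In chromosomal position, the 109 genes were spread over all 12 chromosomes and the set of unplaced models. Chromosome 7 held 17 of its 1530 tested genes (1.11%), against 0.272% to 0.681% elsewhere. Runs of neighbours among the tested genes reached at most 2 genes: the pair of cytochromes P450 and another lower pair on chromosome 7, and a higher pair on chromosome 10. Around the edited genes, 0 of 52 tested genes within 50 models of *SDG33* passed by limma (6 at an unadjusted p under 0.05), and 1 of 65 within 50 models of *SDG34*, 4 models away from it (8 unadjusted). Over all 20332 genes tested, 109 passed and 2854 had an unadjusted p under 0.05. Positions were read from the order of the gene identifiers, and no sequence or coordinates were used here.

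In shoots of the same mutants, the difference of most of these genes had the same sign. In a fit of the 24 libraries of both organs, 85 of the 109 genes (78.0%) had the same sign in shoots, against 61.5% of all 22257 genes tested, and 47 of them passed there too, while 1 passed with the opposite sign. The background in shoots was far larger, with 4350 genes (19.5%) differing between the mutants there and 217 (0.975%) in roots in the same fit. The homeobox-leucine zipper gene *Solyc06g035940.3* had 0 to 14 in *sdg33* shoots and 94 to 2282 in *sdg34* shoots (log2 difference of 6.65, adjusted p = 6.69e-07), and the ethylene-responsive factor gene *Solyc06g009810.3* had 33 to 95 and 2 to 7 (-3.48, adjusted p = 3.01e-06). Both kept in shoots the direction and nearly the size they had in roots. Roots and shoots come from the same pair of lines, so the shoots are not an independent pair of mutants.

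A test of whether the difference between the mutants differed between organs passed for 394 genes (1.77%). The log2 difference of *sdg34* from *sdg33* was higher in roots for 127 (0.571%) and lower in roots for 267 (1.2%). In absolute size it was the larger in shoots for 324 of the 394 genes and in roots for 70. Of the 109 genes, 19 were among them. The fit treated root and shoot libraries as independent. Which root and shoot libraries share plants was not established, so no such pairing entered the fit. The CYP72A15-like gene *Solyc07g055460.3* had 841 to 1660 in *sdg33* shoots and 974 to 1948 in *sdg34* shoots, a log2 difference of 0.20 (SE 0.19, adjusted p = 0.503). The difference in roots minus that in shoots was -2.78 (adjusted p = 1.82e-05). Its neighbour *Solyc07g055440.2* had 86 to 198 and 56 to 147 (-2.49, adjusted p = 0.00469), and the DnaJ gene *Solyc10g086570.3* had 4368 to 7206 and 4353 to 5548 in shoots (-1.20, adjusted p = 0.0312). For these 3 genes the shoot level was above the root level in both mutants, and the libraries of the mutants overlapped in shoots within both N conditions for *Solyc07g055460.3*, at +N for *Solyc07g055440.2* and at -N for *Solyc10g086570.3*. The green tissue markers, whose sums in roots are given above, were also higher in shoots, and their part in the root values was not tested.

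**Figure D5:**
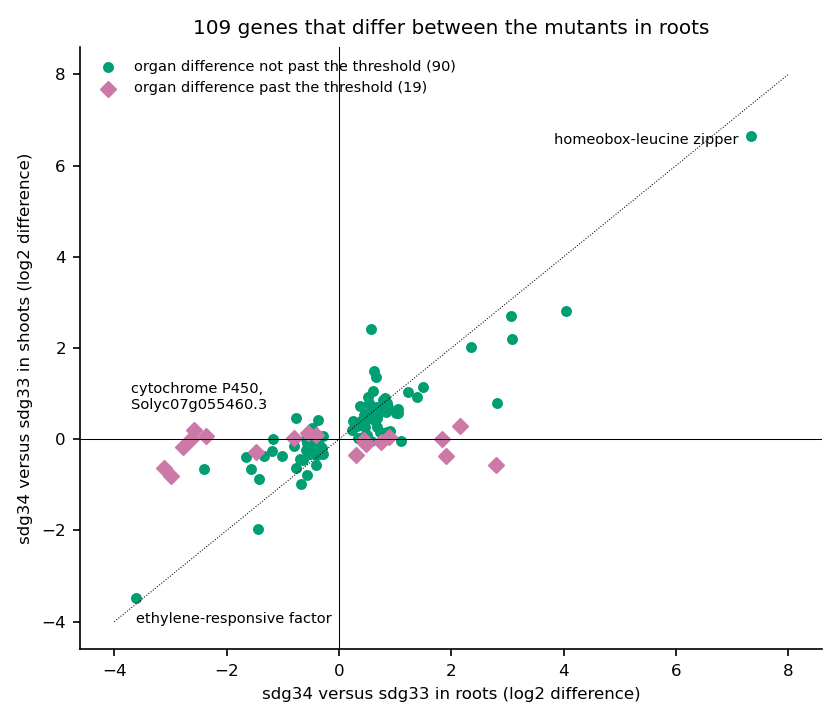
Log2 difference between sdg34 and sdg33 in roots (x axis) and in shoots (y axis) for the 109 genes that differed in roots, from the fit of 24 libraries. Diamonds are the 19 genes whose difference itself differed between organs, the dotted line marks equal differences, and 85 genes have the same sign in both organs.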

How the data were processed

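The members and gene lists were chosen with earlier results of these data known. The authors sequenced the libraries on an Illumina instrument, aligned reads to tomato genome build 3.0 with BBmap and counted them with featureCounts on ITAG 3.2 models and miRNA loci. The deposited score values are normalized counts: the authors applied full-quantile normalization across the 36 libraries and kept whole numbers, so a library's own depth, and differences in the spread of values between libraries, were removed before deposit. Depth is unknown and no counting interval can be given. Because the values are not raw counts, no count model was used. Here, log2(value + 1) was fitted with limma 3.58.1 (R 4.3.3, trended variance, Benjamini-Hochberg adjustment, threshold of 0.05) on genes that reached 10 in 3 or more of the fitted libraries. Over the 12 root libraries the model held N condition and genotype. Effects within an N condition and the difference in N response came from a model of 4 groups, the organ comparison from 24 libraries in 8 groups, and mutant against WT from 18 root libraries, each named in the text. Low values understate fold changes on this scale. Alternatives were the pseudocount (0.1 or 10), the filter, rescaling by median of ratios, no variance trend, an interaction term, all root libraries in 1 fit, minimum log2 differences, a replicate block and leaving out each library. Replicates are pools of separate plants. Leaving out each library for the shares of N-responsive genes was chosen after seeing the data.

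The genes named were *SDG33*, *SDG34*, the N and SAUR genes above, the described genes with the largest differences past the threshold (at most 12 in each direction, mean of at least 20, no overlap within either N condition), at most 2 in each direction without a description, at most 2 in each direction per list, at most 5 in each direction for the N response, and at most 3 in each direction at one N condition only and between organs. Descriptions were taken for 2009 genes from the lists accompanying the study, and the reference table matched 0 of the identifiers. Of 104 miRNA loci, 4 were tested and 0 passed by limma in any comparison (1 at an unadjusted p under 0.05 over both N conditions). The scripts were tested on simulated data.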

Additional observations from a re-analysis of the deposited data

Results flagged for a closer look

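The response to N differed between the mutants for 10 genes, by the test of the interaction. For the 5 described ones the response in *sdg34* minus that in *sdg33* was 1.70 for the MAP kinase kinase kinase gene *Solyc01g111880.3*, 4.35 for the EF-hand gene *Solyc03g031630.3*, 1.69 for the F-box gene *Solyc02g092290.3*, 1.22 for the NBS-LRR gene *Solyc06g064750.1* and 1.20 for the DUF789 gene *Solyc07g054270.3*, on the log2 scale.

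The difference between *sdg34* and *sdg33* itself differed between roots and shoots for 394 genes, with a higher value in roots for 127 and a lower value in roots for 267. Among genes that differed in roots, the root minus shoot difference was 3.37 for the undescribed *Solyc01g020376.1* (adjusted p = 0.0127 by limma), -2.78 and -2.49 for the CYP72A15-like genes *Solyc07g055460.3* and *Solyc07g055440.2*, and -1.20 for the DnaJ gene *Solyc10g086570.3*. For the EF-hand gene *Solyc03g031630.3* it was -2.08, with 0 or 1 in every shoot library of the mutants.

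Another 4 described genes had the largest such differences without passing in roots over both N conditions. The Rossmann-fold gene *Solyc06g083470.3* (2.03) had a log2 difference of -0.09 in roots and -2.13 in shoots. Its shoot values were near the bottom of the scale, at 2 to 13 in *sdg33* and 0 to 4 in *sdg34*. The F-box gene *Solyc10g052650.2* (0.96) and the bile acid symporter gene *Solyc09g055940.3* (0.98) were at 0.29 and 0.35 in roots and at -0.67 and -0.62 in shoots. The patatin gene *Solyc04g079260.3*, of a family of lipid acyl hydrolases, had -3.38. Its values were 94, 24 and 88 at -N and 88, 20 and 70 at +N in *sdg33* roots. In *sdg34* roots they were 4, 1 and 6 at -N and 8, 93 and 36 at +N. Shoots were near the bottom of the scale, at 0 to 2 in *sdg33* and 0 to 4 in *sdg34*.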

How the results depend on the processing

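No named gene past the threshold changed direction, but the majority direction of the N response turned when 1 library was left out, from 10 more positive and 0 more negative responses in *sdg34* to 145 and 168 without *sdg34* -N replicate 3 and 17 and 20 without *sdg34* +N replicate 3. Rescaling by median of ratios (63 higher and 47 lower in *sdg34*) and pseudocounts of 0.1 or 10 left the numbers within 1.5 times. Without a filter, 1 gene had a more negative N response in *sdg34*. With at least 10 in every library, 23 genes were higher and 61 lower at -N, 17 and 18 at +N, and 6 had a more positive N response. With all 18 root libraries in 1 fit, 161 were higher and 174 lower over both conditions (102 of the 109 among them), 113 higher at -N, 72 higher and 70 lower at +N, and the N response was more positive for 35 and more negative for 16. Including an interaction term gave 93 higher and 106 lower, with all 109 among them, and no variance trend gave 36 higher. An absolute log2 difference of at least 1 left 17 higher and 17 lower, 15 and 63 at -N, 15 and 12 at +N, and 22 and 56 between organs. One of at least 2 left 8 and 8, 9 and 16 at -N, 8 and 7 at +N, and 4 for the N response. A minimum difference and a stricter filter leave fewer genes by construction, and the cause of the other shifts was not tested.

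Leaving out each library in turn gave 19 to 165 higher and 15 to 160 lower genes, 3 to 187 and 23 to 247 at -N, 2 to 264 and 0 to 238 at +N, 2 to 145 with a more positive and 0 to 168 with a more negative N response, and 48 to 255 and 129 to 515 between organs (highest without *sdg33* +N shoot replicate 3, lowest without *sdg33* +N shoot replicate 2). Over 48 results for named genes past the threshold, 400 of these fits stayed past it and 248 did not, and of the other alternatives 293 stayed and 44 did not.

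Replicate numbers were not shown to pair the libraries: 6 of 18 same-number correlations of deviations were over 0.1 (-0.11 to 0.26), and 5 of 12 libraries correlated best with their own number. With the replicate block, 95 genes were higher and 185 lower at -N, and 1 had a more negative N response. For 81 genes the log2 difference between the mutants was higher in roots than in shoots. Over both conditions, 51 and 48 passed with the block. The values have no depth, so what depth limits cannot be stated.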
